A study of Mus musculus with 6 samples.

Results

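The respiratory chain is built from 2 genomes, and its genes were followed here in embryonic sensory ganglia with and without a microRNA cluster. Members were the rows whose symbol named a mitochondrially encoded Nd, Co, Cytb or Atp gene, or a nuclear gene whose name began with Nduf followed by a, b, c, s or v, with Uqcr, with Cox and a digit of the range 4 to 8, or with Atp5, or was Sdha, Sdhb, Sdhc or Sdhd. This gave 104 of the 24264 genes measured, of which 13 are mitochondrially encoded and 91 are nuclear. The rule reads names only and uses no measured value, though it was chosen with earlier results of these data known. Of the nuclear members, 42 were counted with complex I, 4 with complex II, 8 with complex III, 20 with complex IV and 17 with complex V (ATP synthase). Names bring in 9 genes that are not subunits: the assembly factors Ndufaf1 to Ndufaf6, the supercomplex factor Cox7a2l, and Atp5s and Atp5sl. Atp5sl, named Dmac2 in GENCODE M21, was counted with complex V only because of its symbol.

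Polyadenylated RNA of lumbar dorsal root ganglia was sequenced of E12.5 embryos from 3 miR_cKO and 3 Control mice. The miR_cKO mice carried Wnt1-Cre and were flox/flox for the cluster miR-183-96-182, and Controls 1 and 3 carried Wnt1-Cre while Control 2 was titled WT. All had a mixed C57/Bl6 x 129/SvEv background, and the 6 libraries shared a run and a lane. Wnt1-Cre acts in the neural crest, which gives rise to the neurons and glia of the ganglion but not to its vessels, blood or surrounding tissue, so those cells kept the cluster. The sources used here do not say whether a library pooled embryos, and p-values measure the spread between these libraries.

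Complexes I to IV pass electrons from NADH and succinate to oxygen and, apart from complex II, pump protons, and complex V uses the proton gradient to make ATP. The mitochondrial genome encodes the membrane core of complex I, cytochrome b of complex III, the catalytic core of complex IV and a pair of membrane subunits of complex V. All other subunits, and the whole of complex II, are nuclear. Mitochondrial genes are transcribed as long joint RNAs that are cut apart at the tRNAs, whereas each nuclear subunit has its own promoter. Developing sensory neurons rely on this chain to supply growing axons.

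The deleted cluster encodes 3 microRNAs with related seeds. Their RefSeq mature sequences (GRCm38.p6, chromosome 6, minus strand) are shown because the seed, bases 2 to 8 in capitals, defines the sites searched in the members below.
mmu-miR-182-5p: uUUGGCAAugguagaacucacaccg
mmu-miR-96-5p: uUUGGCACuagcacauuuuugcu
mmu-miR-183-5p: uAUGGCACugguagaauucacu
The seeds of miR-182 and miR-96 share their first 6 bases, and those of miR-96 and miR-183 share their last 6.

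Libraries differed in ways that the groups do not explain, and these values bear on what follows. Depth estimated from the step size of the values was 20.8 to 22.4 M reads in miR_cKO and 20.1 to 24.2 M reads in Control libraries. Xist was at 96.0 RPKM in miR_cKO 1 and at 0.089 RPKM or less in the other libraries, and the Y-linked genes were near 0 only in miR_cKO 1. All 10 skeletal muscle markers were detected in every library, and they summed to 31.1 to 43.3 RPKM in miR_cKO libraries, against 32.5, 181 and 141 RPKM in Controls 1 to 3. Summed neuron markers were 3167 to 4860 RPKM in miR_cKO and 3312 to 4260 RPKM in Control libraries, whereas 5 spinal cord markers summed to 3.61 RPKM at most. In bulk RNA, fewer cells of a type and less RNA per cell cannot be told apart. RPKM, reads per kilobase of transcript and per M mapped reads, is a level per length, so levels can be set side by side between genes. This holds less well for short genes that share bases with a neighbour, as given below.

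Mitochondrially encoded members were among the most abundant messages of the ganglion. They held ranks 1 to 4 of all genes by mean level (mt-Atp6, mt-Co3, mt-Co2 and mt-Co1) and rank 6 (mt-Atp8), and the lowest, mt-Nd5, held rank 31. Their summed level was 50314, 43587 and 44168 RPKM in miR_cKO 1 to 3, against 49543, 40709 and 37800 RPKM in Controls 1 to 3. This is 12.3%, 10.3% and 10.6% of all summed RPKM in miR_cKO libraries, against 11.6%, 9.76% and 9.34% in Control libraries. The groups overlapped, with the first library of each group highest. As a share of mapped reads, which also weighs length, the 13 genes took 4.36%, 3.72% and 3.75% in miR_cKO libraries and 4.21%, 3.48% and 3.13% in Control libraries.

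**Figure D1:**
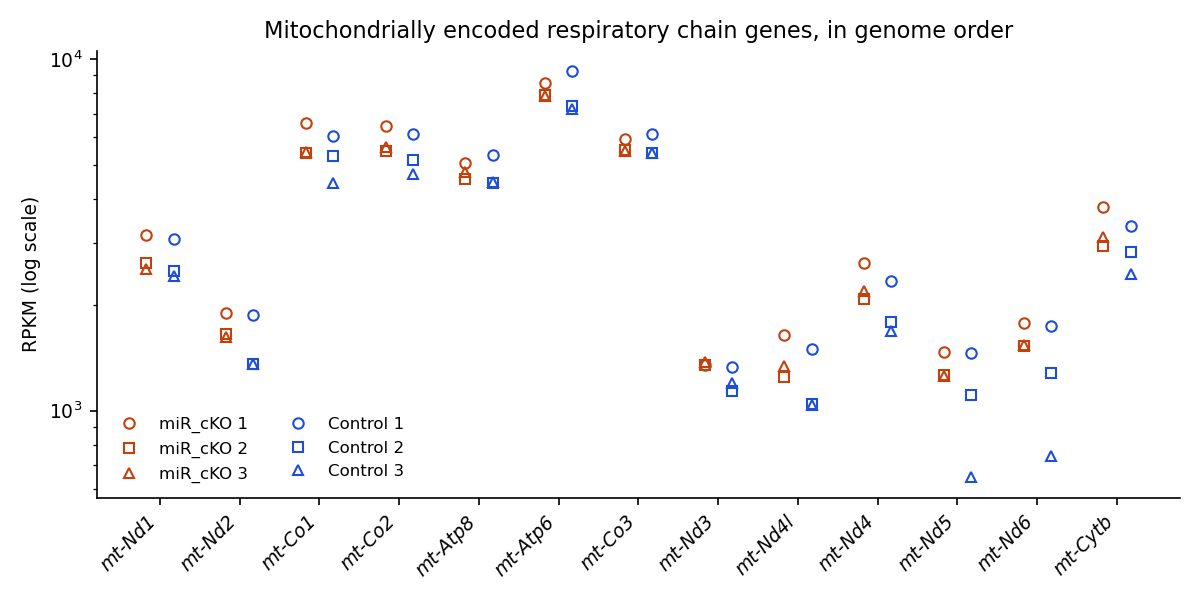
RPKM on a log axis of the 13 mitochondrially encoded members in genome order, one point for each library, with miR_cKO left of Control. The mt-Atp6 gene is highest at a mean of 8022 RPKM, and the points of Control 3 for mt-Nd5 and mt-Nd6, 647 and 742 RPKM, lie below all others.

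Nuclear members were far lower and varied less between libraries. Between genes, mean levels ran from 2.01 to 519 RPKM for tested nuclear members and from 1203 to 8022 RPKM for mitochondrially encoded members. Their summed level was 6346, 6796 and 6345 RPKM in miR_cKO 1 to 3, against 6568, 6815 and 6921 RPKM in Controls 1 to 3, again with overlapping groups. Together they made up 1.52% to 1.60% of summed RPKM in miR_cKO and 1.53% to 1.71% in Control libraries. The median standard deviation over the 6 libraries, on the log2(RPKM + 1) scale, was 0.0852 for 85 tested nuclear members, against 0.19 for the 13 mitochondrially encoded members and 0.131 for all 13118 tested genes. These sets were not matched for level: the median level was 54.8 RPKM for tested nuclear members and 10.7 RPKM for all tested genes.

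The ratio of the mitochondrial sum to the nuclear sum does not depend on how a library is scaled. It was 7.93, 6.41 and 6.96 in miR_cKO 1 to 3, and 7.54, 5.97 and 5.46 in Controls 1 to 3. On the log2 scale it averaged 2.82 ± 0.15 in miR_cKO and 2.65 ± 0.24 in Control libraries (SD, n = 3 each), a difference of 0.17 that is smaller than the spread among the Controls. Groups overlapped: Control 1 lay above miR_cKO 2 and miR_cKO 3. Leaving out Control 1 gave 0.31, leaving out Control 3 gave 0.076 and leaving out miR_cKO 1 gave 0.093. Set against Control 1 alone, that is without Controls 2 and 3, which carried the most muscle marker signal and the lowest ratios, the difference was -0.093. That value restates the order of the libraries, and the part of muscle tissue in it was not tested. By complex, the ratio was largest for complex IV, at 12.9, 10.6 and 11.6 in miR_cKO and 12.2, 10.5 and 9.15 in Control libraries. For complex I it was 8.06, 6.42 and 6.90 in miR_cKO and 7.50, 5.61 and 4.73 in Control libraries. For complexes III and V it ran from 4.88 to 6.91 in miR_cKO and from 4.03 to 6.43 in Control libraries.

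**Figure D2:**
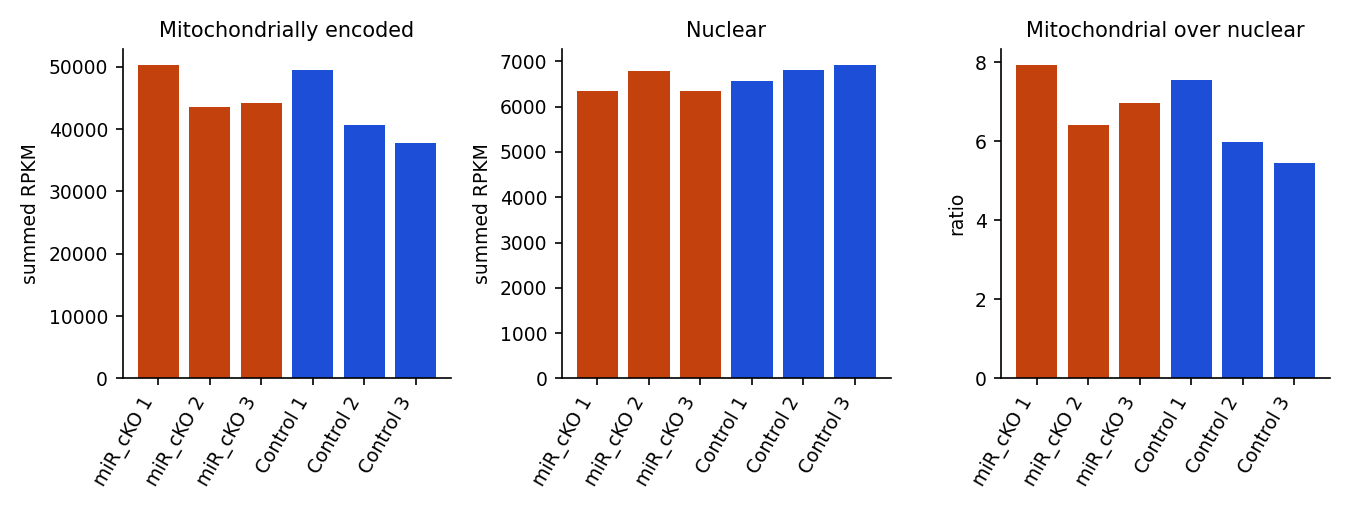
Bars give summed RPKM of the 13 mitochondrially encoded members, summed RPKM of the 91 nuclear members, and the ratio of these sums, for miR_cKO 1 to 3 and then Controls 1 to 3. The nuclear sum stays between 6345 and 6921 RPKM while the ratio runs from 5.46 to 7.93, with the first library of each group highest.

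Across mitochondrially encoded members, a library tended to lie on the same side of the mean at all genes. Relative to each gene's mean over the 6 libraries, all 13 genes were above the mean in miR_cKO 1 and in Control 1. In miR_cKO 2 and 3, 4 and 9 of the 13 were above it, and in Controls 2 and 3 none was. The median deviation on the log2 scale was 0.23, -0.021 and 0.02 in miR_cKO 1 to 3 and 0.16, -0.11 and -0.25 in Controls 1 to 3. Summed haemoglobin and other red cell markers, of which 6 of 9 were in the table, did not follow this order, at 3800, 7145 and 7364 RPKM in miR_cKO 1 to 3 and 10718, 5722 and 2155 RPKM in Controls 1 to 3. Mesenchyme markers, all 10 detected in every library, ran opposite to it: they summed to 204, 273 and 304 RPKM in miR_cKO 1 to 3 and 234, 391 and 429 RPKM in Controls 1 to 3. All 10 had a log2 difference below 0, against 59.6% of all tested genes, with a median of -0.37, and none passed the test. Their part in the mitochondrial levels was not tested. Nuclear members showed another order, with 15, 58 and 20 of 85 above their mean in miR_cKO 1 to 3, against 40, 60 and 69 of 85 in Controls 1 to 3.

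**Figure D3:**
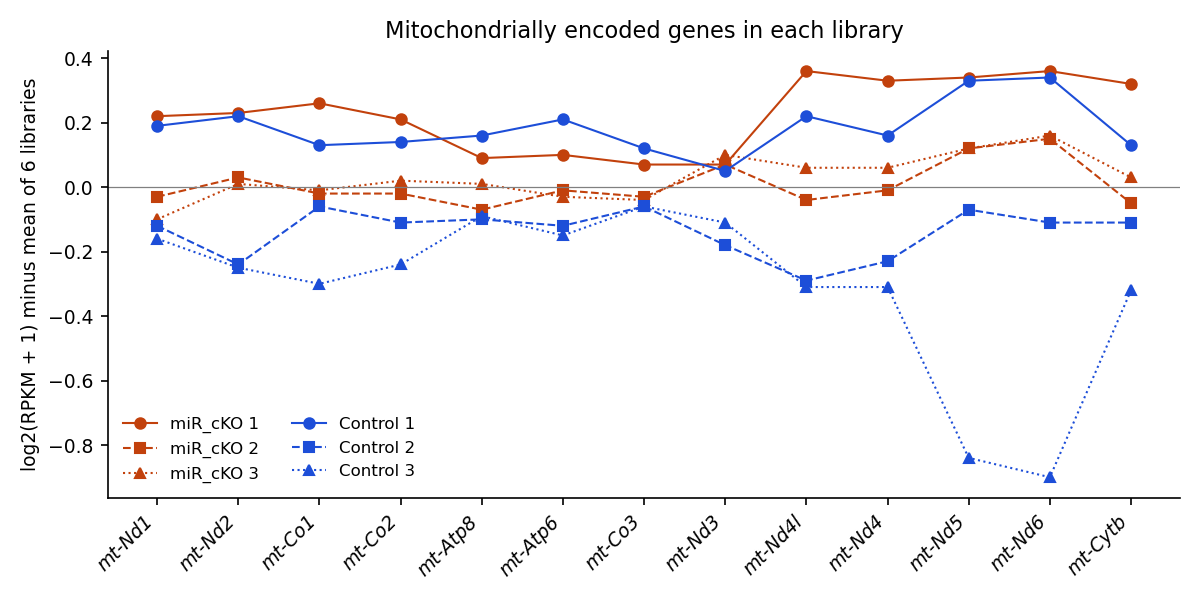
Each line is a library, and each point is the log2(RPKM + 1) level of a mitochondrially encoded member minus that gene's mean over 6 libraries, in genome order. The lines of miR_cKO 1 and Control 1 lie above 0 throughout, those of Controls 2 and 3 below 0, and Control 3 drops to -0.84 at mt-Nd5 and -0.90 at mt-Nd6.

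Several of these genes share bases with a neighbour, so reads cannot always be given to 1 gene. The ends of the sharing pairs are shown from GENCODE M21 transcripts on mm10, with shared bases or the start codon in capitals. The first line opens at the start codon of mt-Atp6, which lies inside mt-Atp8, and belongs to 43 shared bases. In the second, the last 7 bases of mt-Nd4l open mt-Nd4. The last 2 lines are the tails of mt-Nd5 and of mt-Nd6, which is encoded on the opposite strand, and their 14 shared bases are reverse complements.
mt-Atp8 and mt-Atp6, chrM:7927-7956, plus strand: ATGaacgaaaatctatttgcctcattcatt
mt-Nd4l, chrM:10144-10173, plus strand: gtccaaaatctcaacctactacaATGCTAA
mt-Nd5, chrM:13536-13565, plus strand: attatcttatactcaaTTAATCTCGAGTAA
mt-Nd6, chrM:13552-13581, minus strand: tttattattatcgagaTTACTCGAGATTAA
Ratios within the first 2 of these pairs varied little between libraries. The ratio mt-Atp8 over mt-Atp6 was 0.575 to 0.611 in miR_cKO and 0.577 to 0.622 in Control libraries. For mt-Nd4l over mt-Nd4 it was 0.598 to 0.625 in miR_cKO and 0.587 to 0.638 in Control libraries. The tRNA gene mt-Ti, 69 bases long, shares 2 bases with mt-Nd1 on the same strand. Its ratio to mt-Nd1 was 0.658 to 0.705 in miR_cKO and 0.65 to 0.664 in Control libraries. For mt-Tw, 67 bases long and sharing 2 with mt-Nd2, the ratio to mt-Nd2 was 0.708 to 0.766 in miR_cKO and 0.724 to 0.736 in Control libraries. Levels of short genes such as mt-Atp8 and mt-Nd4l may hold reads of a neighbour, which was not tested. Some genes that lie further apart and do not overlap were also set against mt-Nd4. For mt-Nd2 this ratio was 0.720 to 0.792 in miR_cKO and 0.763 to 0.804 in Control libraries. For mt-Cytb it was 1.41 to 1.45 in miR_cKO and 1.43 to 1.58 in Control libraries. For mt-Co1 it was 2.49 to 2.60 in miR_cKO and 2.57 to 2.96 in Control libraries. For mt-Atp6 it was 3.26 to 3.80 in miR_cKO and 3.95 to 4.28 in Control libraries.

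At mt-Nd5 and mt-Nd6, Control 3 stood apart from the other 5 libraries. The gene mt-Nd5 encodes a proton-pumping subunit and stood at 1470, 1266 and 1259 RPKM in miR_cKO 1 to 3 and at 1464, 1111 and 647 RPKM in Controls 1 to 3. The level of mt-Nd6, the only protein gene on the other strand, was 1774, 1530 and 1539 RPKM in miR_cKO libraries and 1747, 1283 and 742 RPKM in Control libraries. Control 3 was lowest for both, and the groups overlapped because Control 1 matched the miR_cKO libraries. The ratio of mt-Nd5 to its upstream neighbour mt-Nd4 was 0.559 to 0.608 in miR_cKO libraries, against 0.625, 0.622 and 0.384 in Controls 1 to 3. By contrast, mt-Nd6 over mt-Nd5 was 1.21 to 1.22 in miR_cKO and 1.15 to 1.19 in Control libraries. The glutamate tRNA gene mt-Te, beside mt-Nd6 on the same strand, was at 1145, 1018 and 957 RPKM in miR_cKO libraries and at 1068, 845 and 449 RPKM in Control libraries, so it was low in Control 3 as well.

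Strand handling limits what mt-Nd6 shows. The mt-Nd5 message is known to run on past its stop codon along the strand opposite mt-Nd6. The sources used here do not state whether reads were counted by strand. Tsix, annotated antisense across Xist, was at 22.7 RPKM in the library with Xist at 96.0 RPKM and at 0.0235 RPKM or less elsewhere. By contrast, the tRNA gene mt-Ts1 was at 0 RPKM in every library. It lies at the end of mt-Co1 on the opposite strand and shares 3 bases with that gene. The tRNA genes mt-Tf and mt-Th, on the plus strand and sharing no base with the next gene, were at 0 RPKM in every library too. Strand use stays unknown from these values. Reads of mt-Nd5 and mt-Nd6 cannot be told apart here, so their low values in Control 3 are not separate observations. Leaving both genes out, the log2 ratio of mitochondrial to nuclear sums differed by 0.16 between the groups.

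No member passed the test between the groups. Among 98 members tested, 0 had an adjusted p under 0.05 (limma, Benjamini-Hochberg over 13118 genes), where 8 of all tested genes did, 0.061%. At an unadjusted p under 0.05, 2 members were lower, against 2.31% of all genes, and 0 were higher, against 2.85%. Ndufa10, an accessory subunit of complex I (mm10 chr1:92439010-92473860), was at 51.5, 54.0 and 53.7 RPKM in miR_cKO and 58.3, 57.7 and 58.4 RPKM in Control libraries, a log2 difference of -0.13 (SE 0.054, limma adjusted p = 0.959). Ndufaf1, a complex I assembly factor (chr2:119655446-119662827), was at 11.4, 12.3 and 11.9 RPKM in miR_cKO and 13.9, 13 and 13.2 RPKM in Control libraries, a log2 difference of -0.16 (SE 0.067, limma adjusted p = 0.964). For both genes every miR_cKO library lay below every Control library. A total of 10 nuclear members had groups that did not overlap with miR_cKO lower, against 6.24% of all genes, and 2 members had miR_cKO higher, against 4.63%. Those 2 were Uqcrb of complex III and mt-Nd3.

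The fitted differences of nuclear members were small and mostly negative. Of 85 tested, 70 were below 0, which is 82.4%, against 59.6% of all tested genes. Their median was -0.062 on the log2 scale, against -0.024 for all genes, with a range of -0.24 to 0.14. With each library centred on its median gene, 58 of 85 (68.2%) were below 0, against 47.9% of all genes, and against Control 1 alone the count was 48 of 85 (56.5%), against 45.2%. The 13 mitochondrially encoded members were all above 0 with a median of 0.15 and a range of 0.00 to 0.44, and the median was 0.059 without Control 3, with 9 of 13 above 0, 0.088 without miR_cKO 1 and 0.25 without Control 1. Against Control 1 alone, the library where all 13 lay above their mean, 1 of 13 was above 0 and the median was -0.12. Members share libraries and are not replicates, so these counts describe the libraries.

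**Figure D4:**
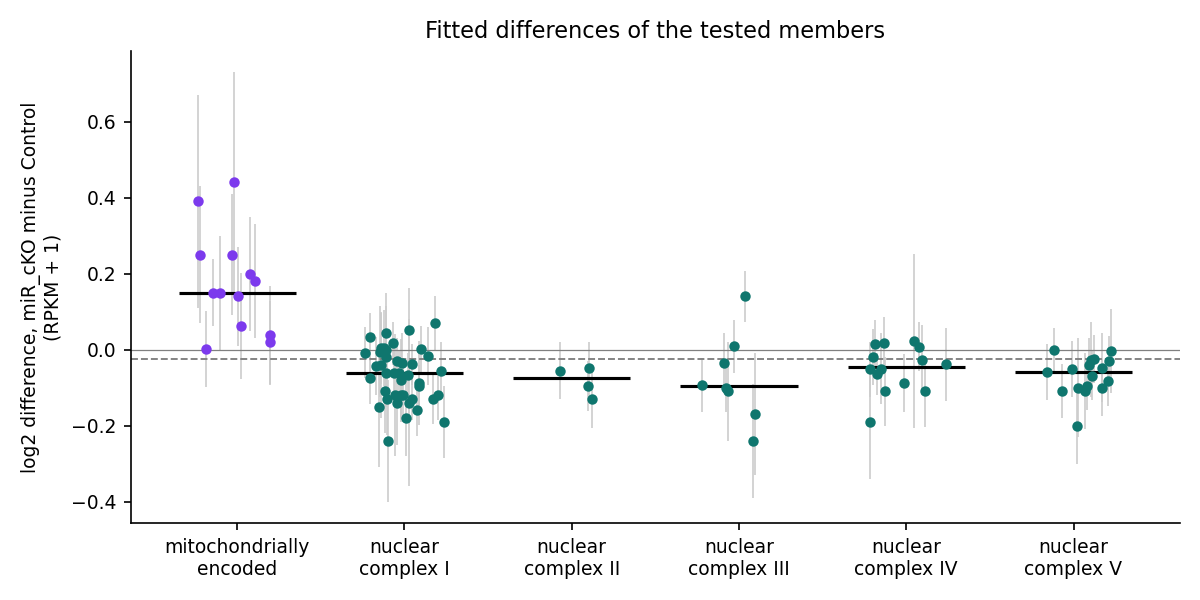
Points are fitted log2 differences, miR_cKO minus Control, on the RPKM + 1 scale for 98 tested members, with grey bars of 1 standard error and black bars at each set's median. The dashed line is the median of all 13118 tested genes, -0.024. Mitochondrially encoded members lie at 0.00 to 0.44 and most nuclear members just below 0, and none passed the test.

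Complex I, which oxidises NADH, had 42 nuclear members, all tested, with a median log2 difference of -0.062. Of these, 33 (78.6%) were below 0, against 59.6% of all tested genes. Ndufs1, a core subunit that carries iron-sulfur clusters, was at 44.5, 45.7 and 46.0 RPKM in miR_cKO and 49.2, 49.2 and 47.2 RPKM in Control libraries. Its groups did not overlap, yet the log2 difference of -0.095 (SE 0.055) did not pass. Ndufv1, which binds NADH, was at 50.2, 51.6 and 47.3 RPKM in miR_cKO and 51.9, 54.0 and 56.5 RPKM in Control libraries, also without overlap. Ndufa2, an accessory subunit, was at 42.6, 45.2 and 39.1 RPKM in miR_cKO and 42.9, 51.3 and 51.6 RPKM in Control libraries. Its groups overlapped, and its log2 difference of -0.19 (SE 0.095) did not pass. Levels of structural complex I members had a median of 48.4 RPKM and ran from 8.73 RPKM for Ndufa11 to 127 RPKM for Ndufb8. Ndufaf assembly factors, which act on the complex while it is built and are not retained in it, had a lower median of 8.07 RPKM.

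Mitochondrial complex I genes differed among themselves in level. Values of mt-Nd4l and mt-Nd4, which share bases, and of mt-Nd5 and mt-Nd6 may not be separate message levels. The mean over 6 libraries was 2718 RPKM for mt-Nd1 and 2119 RPKM for mt-Nd4, and it lay between 1203 and 1625 RPKM for the other 5. The smallest spread was that of mt-Nd3, at 1349, 1350 and 1375 RPKM in miR_cKO and 1332, 1139 and 1196 RPKM in Control libraries. It was the only mitochondrially encoded member without overlap, with Control 1 close below the miR_cKO libraries, and its log2 difference of 0.15 (SE 0.089) did not pass. For mt-Nd5 and mt-Nd6 the log2 differences were 0.39 (SE 0.28) and 0.44 (SE 0.29), and neither passed. They were 0.059 and 0.11 without Control 3, and 0.65 and 0.72 without Control 1. For mt-Nd2, at 1893, 1649 and 1619 RPKM in miR_cKO and 1873, 1362 and 1355 RPKM in Control libraries, the groups overlapped through Control 1.

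Complex II, succinate dehydrogenase, links the chain to the tricarboxylic acid (TCA) cycle and has no mitochondrially encoded subunit. Its 4 genes had similar levels, from 64.7 RPKM for the membrane anchor Sdhd to 81.3 RPKM for the iron-sulfur subunit Sdhb. Sdhb was at 82.2, 79.1 and 71.8 RPKM in miR_cKO and 79.5, 86.9 and 88.2 RPKM in Control libraries. The groups overlapped through miR_cKO 1, and the log2 difference of -0.13 (SE 0.077) did not pass. The flavoprotein gene Sdha stood to Sdhb in a ratio of 0.858 to 1.04 in miR_cKO and 0.836 to 0.987 in Control libraries.

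Complex III passes electrons from ubiquinol to cytochrome c. Uqcrb, a subunit that contacts the ubiquinone site (chr13:66900617-66905378), was at 77.8, 80.1 and 83.3 RPKM in miR_cKO and 77.3, 69.6 and 72.4 RPKM in Control libraries, the largest positive difference of any nuclear member at 0.14 (SE 0.066). Control 1 lay just below the lowest miR_cKO library, and the difference did not pass. Uqcrq, a small accessory subunit, was at 35.8, 33.1 and 28.4 RPKM in miR_cKO and 31.6, 38.1 and 46.8 RPKM in Control libraries. Its groups overlapped, and its log2 difference of -0.24 (SE 0.15) was -0.099 without Control 3. The Rieske iron-sulfur protein Uqcrfs1 was at 58.0, 62.4 and 58.4 RPKM in miR_cKO and 65.5, 61 and 65.7 RPKM in Control libraries, with a difference of -0.10 that did not pass. The mitochondrially encoded cytochrome b, mt-Cytb, was at 3805, 2941 and 3119 RPKM in miR_cKO and 3349, 2825 and 2446 RPKM in Control libraries.

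Complex IV reduces oxygen and has nuclear subunits with tissue isoforms. The widely expressed forms were high in every library: Cox4i1 averaged 245 RPKM, Cox6b1 219 RPKM, Cox6a1 136 RPKM and Cox8a 124 RPKM over the 6 libraries. The 6 members that did not pass the filter on low values were all of this complex: the lung, muscle and testis forms Cox4i2, Cox6a2, Cox7b2, Cox8b and Cox8c, and Ndufa4l2. None of them exceeded 1.19 RPKM in any library. Cox8c was listed at 0 in all libraries. Another testis form, Cox6b2, passed the filter, at 3.36, 6.28 and 5.41 RPKM in miR_cKO and 3.49, 5.56 and 5.58 RPKM in Control libraries. Cox6a2, the heart and skeletal muscle form, was at 0, 0 and 0.066 RPKM in miR_cKO and 0.0634, 0.397 and 0.204 RPKM in Control libraries, highest in Controls 2 and 3, where the muscle markers were highest. Its partner in muscle, Cox7a1, was at 1.39, 2.22 and 1.83 RPKM in miR_cKO and 1.76, 2.40 and 2.44 RPKM in Control libraries, while Cox7a2 was 51.6 to 73.2 times as high in miR_cKO and 43.2 to 63.5 times in Control libraries. The part of muscle in these levels was not tested.

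Among the widely expressed complex IV subunits no difference passed the test. Cox5a, a subunit on the matrix side, was at 85.2, 85.4 and 84.0 RPKM in miR_cKO and 89.9, 87.3 and 89.3 RPKM in Control libraries, without overlap and with a log2 difference of -0.065 (SE 0.055). Cox5b, which binds zinc, was at 77.1, 91.5 and 75.6 RPKM in miR_cKO and 92.7, 82.7 and 87.7 RPKM in Control libraries, with overlap. Ndufa4, first described in complex I and now placed with complex IV, was at 173, 185 and 174 RPKM in miR_cKO and 200, 175 and 191 RPKM in Control libraries. Its groups overlapped. The catalytic subunit mt-Co1 was at 6589, 5420 and 5452 RPKM in miR_cKO and 6028, 5295 and 4457 RPKM in Control libraries, also with overlap.

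Complex V was the most abundant nuclear part. Atp5b, the catalytic beta subunit (chr10:128083273-128090391), was the highest nuclear member at 494, 538 and 494 RPKM in miR_cKO and 536, 532 and 522 RPKM in Control libraries. The alpha subunit gene Atp5a1 was at 304 to 324 RPKM in miR_cKO and 319 to 355 RPKM in Control libraries. Relative to the gamma subunit gene Atp5c1, of which the motor holds a single copy, Atp5b was 6.69 to 7.09 times as high in miR_cKO and 6.63 to 7.22 times in Control libraries, and Atp5a1 was 4.16 to 4.35 times as high in miR_cKO and 4.30 to 4.43 times in Control libraries. Atp5g1, Atp5g2 and Atp5g3, which encode the same mature ring protein, summed to 430 to 478 RPKM in miR_cKO and 441 to 478 RPKM in Control libraries. Atp5g3 gave the most, averaging 271 RPKM. All 17 complex V members had a difference below 0, against 59.6% of all tested genes, with a median of -0.059, and none passed. Atp5l, a membrane subunit, was at 70.5, 77.0 and 66.4 RPKM in miR_cKO and 78.7, 75.6 and 76.7 RPKM in Control libraries. Atp5k, another membrane subunit, was at 78.0, 74.0 and 72.3 RPKM in miR_cKO and 77.4, 83.2 and 79.3 RPKM in Control libraries, and neither Atp5l nor Atp5k passed. Atp5s, a factor named for ATP synthase that is not a stable subunit, was at 2.98, 3.38 and 3.57 RPKM in miR_cKO and 3.71, 4.30 and 3.82 RPKM in Control libraries, without overlap, and its difference of -0.20 (SE 0.10) did not pass.

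The 3 X-linked members were read beside the library that carried Xist. Ndufa1 was at 47.1, 46.2 and 44.0 RPKM in miR_cKO and 47.2, 48.7 and 54.0 RPKM in Control libraries. Ndufb11 was at 51.4, 55.1 and 57.1 RPKM in miR_cKO and 52.1, 53.9 and 53.7 RPKM in Control libraries. Cox7b was at 65.9, 66.0 and 62.7 RPKM in miR_cKO and 64.6, 61.4 and 66.4 RPKM in Control libraries. The value of miR_cKO 1 lay within the range of the other libraries for Ndufa1 and Cox7b, and just below it for Ndufb11.

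Libraries of 1 group also differed from each other, and between some of them the difference of nuclear members followed base composition. Ndufs7, an iron-sulfur core subunit of complex I with 59.6% GC, was at 15.5, 19.2 and 15 RPKM in miR_cKO and 12.6, 20.2 and 23.9 RPKM in Control libraries. Control 3 thus exceeded Control 1 by 0.88 on the log2 scale, and the difference was 0.63 for both Ndufa11 and Uqcr11, with 58.0% and 58.9% GC. Across 85 nuclear members, the difference of Control 3 minus Control 1 had a Spearman rho of 0.47 with GC content, and across 11231 tested genes with a transcript the rho was 0.43. Members of lower GC moved too, with 0.55 for Uqcrq (50.2% GC) and 0.46 for Ndufc1 (44.1% GC). For Control 2 minus Control 1 the rho was 0.46 in members and 0.24 in all genes. Within the miR_cKO group, miR_cKO 2 minus miR_cKO 3 gave 0.51 in members and 0.26 in all genes. For miR_cKO 2 minus miR_cKO 1 the rho was 0.085 in members and -0.028 in all genes, and for miR_cKO 3 minus miR_cKO 1 it was -0.30 and -0.18. These are descriptions across genes that share 2 libraries. For miR_cKO minus Control the same rho was -0.22 in members and -0.17 in all genes. Members' transcripts were short, with a median of 955 bases against 3281 bases for all tested genes, and had a like GC content, 50.3% against 50.2%. The part of base composition in the group differences was not tested.

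**Figure D5:**
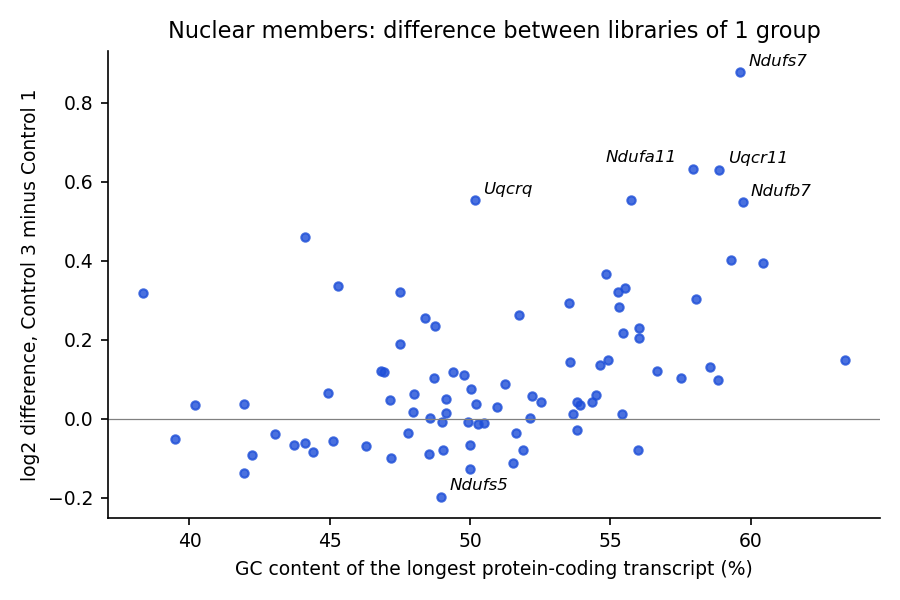
Each of 85 points is a nuclear member, with the GC content of its longest protein-coding transcript in percent on the horizontal axis and the log2 difference between Control 3 and Control 1 on the vertical axis. Members with more GC tend to lie higher (Spearman rho 0.47), and Ndufs7, at 0.88, is the highest.

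What nuclear members share outside their names was looked for in their promoters. RefSeq windows of 300 bases around the start site (GRCm38.p6) were found for 75 of 91 nuclear members, in 81 windows, and searched on both strands. The core site of NRF1, a factor known to control respiratory genes, spelled CGCATGCG, was in 13.6% of member windows, against 1.87% of all 32851 windows. The YY1 site AAGATGGCG was in 11.1% of member windows against 1.40% of all. The ETS site CCGGAAGT, bound by GABP, was in 6.17% of member windows against 3.89% of all, and the ERR site CAAGGTCA in 4.94% against 1.56%. In windows of tested genes alone the shares were 3.82%, 2.88%, 7.63% and 0.975% for NRF1, YY1, ETS and ERR, so for ETS the members' share lay below it. None of these motifs is contained in another, the NRF1 core reads the same on both strands, and a match is a description, not a bound site. Stretches around the NRF1 site are shown for a complex IV and a complex V gene, with the site in capitals.
Cox6a1, chr5:115349101-115349130, minus strand: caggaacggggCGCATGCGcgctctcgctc
Atp5g2, chr15:102671070-102671099, minus strand: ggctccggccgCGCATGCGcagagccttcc
Their sites began at positions -161 and -41 relative to the start site, and the genes averaged 136 and 127 RPKM. Neither differed between the groups beyond the spread, with log2 differences of -0.11 (SE 0.094) and -0.026 (SE 0.098).

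Sites for the deleted microRNAs were rare in these messages. The 3 prime UTRs of the 85 tested nuclear members had a median length of 159 bases, against 1036 bases for all tested genes that have one in GENCODE M21. A match to a seed (7 or 8 bases) was present in 8 of 85 members, 9.41%, against 32.8% of all tested genes. The 8 were Ndufab1, Ndufaf4, Ndufb2, Sdhc, Uqcrq, Atp5a1, Atp5g1 and Atp5s. MicroRNAs are known to lower the messages they target. Of these 8 members, 7 had a difference below 0, with a median of -0.068, against -0.062 in members without a site. Of all tested genes with a site, 1731 of 3623 were below 0, with a median of 0.0054, against -0.037 in genes without one. Only Ndufb2, an accessory subunit of complex I, had an 8-base match, to miR-182, and Uqcrq had the most negative difference of the 8. Their sites, in capitals, lie on mm10 in the UTR that was searched, 4012 bases long for Ndufb2 and 1134 bases for Uqcrq. For every gene this was the UTR of the protein-coding transcript with the longest coding sequence, and ties went to the longest UTR.
Ndufb2, chr6:39599441-39599470, plus strand: attaaagtggcTTGCCAAAaacgaggaact
Uqcrq, chr11:53428353-53428382, minus strand: tatctgtcatgTTGCCAAtccaacagtggc
Ndufb2 was at 26.7, 24.9 and 23.4 RPKM in miR_cKO and 24.6, 23.1 and 23.5 RPKM in Control libraries. The groups overlapped, and its log2 difference of 0.07 (SE 0.07) did not pass.

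Genes that work beside the chain were counted in lists, and none of their members passed the test. Of 16 TCA cycle genes 15 (93.8%) were below 0, against 59.6% of all tested genes, with a median of -0.084 against -0.024. Idh3g, a subunit of isocitrate dehydrogenase, was at 53.8, 56.3 and 52.2 RPKM in miR_cKO and 59.8, 60.7 and 57.2 RPKM in Control libraries, without overlap. Of 76 mitochondrial ribosome genes 60 (78.9%) were below 0, with a median of -0.046. Of 38 assembly genes outside the members 26 (68.4%) were, with a median of -0.041. All 5 carriers, subunits and regulators that the names missed, among them cytochrome c (Cycs) and cytochrome c1 (Cyc1), were below 0, with a median of -0.066. Factors of mitochondrial gene expression had 17 of 30 (56.7%) below 0, and glycolysis genes 12 of 19 (63.2%). Both shares were near that of all tested genes. Among regulators of biogenesis 3 of 9 (33.3%) were below 0. Tbrg4, a mitochondrial RNA-binding protein, averaged 12.8 ± 0.422 RPKM in miR_cKO and 14.5 ± 0.654 RPKM in Control libraries (SD, n = 3 each). Its groups did not overlap, and its difference of -0.17 (SE 0.068, limma adjusted p = 0.912) did not pass. Ttc19, which acts on complex III, was at 12.0, 10.5 and 10.2 RPKM in miR_cKO and 9.81, 8.82 and 9.41 RPKM in Control libraries, without overlap and with a difference of 0.20 (SE 0.088) that did not pass.

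The other list members with the smallest p had log2 differences of 0.18 for the assembly gene 2010305A19Rik, whose groups did not overlap, and -0.10 for Mterfd3, of the mitochondrial termination factor family, whose groups did not overlap either. Among regulators of biogenesis, the coactivator gene Pprc1 was at -0.12 and Gabpb1, a GABP subunit, at 0.10. Suclg1 of the TCA cycle was at -0.13, and the glycolysis genes Aldoc and Pgam1 were at -0.38 and -0.14. The mitochondrial ribosome genes Mrps28 and Mrps18c were at -0.19 and -0.14, and 2010107E04Rik, which the names missed, was at -0.079. None of these passed the test.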

How the data were processed

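Alignment to mm10 was done with Bowtie, per the submitters' processing notes. The sources used here do not state the counting tool, the annotation, how reads with several matches were treated or whether strand was used. The authors deposited a single table with 1 column of values per library and no named unit. These deposited values were read as RPKM, since the values of many genes were whole multiples of a step that shrinks as transcripts lengthen, and depth was estimated from the steps. Of 1659 single-transcript genes used for this, 48.4% gave a depth close to the one taken, so depth is approximate. Members with pseudogene copies (Atp5c1, Atp5k, Atp5l, Ndufab1 and Uqcrh) and mitochondrial genes are uncertain where reads match several places.

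Values were analysed as log2(RPKM + 1), for genes at 1 RPKM or more in at least 3 libraries. This scale understates differences of low genes. The test was limma 3.58.1 (R 4.3.3) with empirical Bayes moderation, using its trend and robust options, and Benjamini-Hochberg adjustment over 13118 genes at a threshold of 0.05. Tested on simulated data, it found 80% of genes planted with a log2 change of 1 and 22% of those with 0.5, and 3.77% of its calls were false. The simulated noise was independent between genes and libraries. Shifts that many genes of a library share, as seen here, were not simulated, so these rates may not hold for these data. Named genes were all mitochondrially encoded members, the 3 smallest p of each complex, the 3 highest nuclear members, X-linked members, tissue isoforms and the 2 smallest p of each other list. Others were named after their values were seen. The members and lists were chosen with earlier results of these data known. Annotation was GENCODE M21. The result for 1 member is not reported here. Alternatives covered the pseudocount, the filter, scaling, the variance trend, a replicate block, single libraries left out and the choice of members.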

Additional observations from a re-analysis of the deposited data

How the results depend on the processing

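No member passed in any of 18 other settings, and the lowest adjusted p of a member was 0.529 (limma, without Control 1, where 11 members had an unadjusted p under 0.05). The count of all genes passing, 8, fell to 2 with median centring and to 0 with upper quartile scaling, with either scaling by sums, without the variance trend and without Controls 2 and 3, where 700, 681, 598, 705 and 395 genes had an unadjusted p under 0.05. Leaving out single libraries gave 0 to 2. The setting without members that are not subunits reused the main fit, so its count of members passing was fixed in advance. The replicate block gave 0 genes, with 847 at an unadjusted p under 0.05, and 2 members at that level. Replicate numbers do not pair the libraries: same-numbered deviations correlated at 0.36, 0.33 and -0.22, and 2 of 6 libraries correlated best with their own number. Leaving out Controls 2 and 3 was chosen after seeing the data, as was leaving out mt-Nd5 and mt-Nd6. With only Control 1 left, assumed to vary like the other libraries, dropping both Controls moved the mitochondrial median to -0.12 and the log2 ratio to -0.093. In the planned settings, 14 of 44 named members tested changed sign; with Control 1 as the only Control library, 1 of 13 mitochondrially encoded members was above 0. Median centring turned Atp5g1 to 0.027, Atp5g2 to 0.0035, Cox7a2 to 0.011 and Cox7a2l to 0.0028, and Atp5g1 was 0.0029 with upper quartile scaling and 0.0098 with scaling by sums without haemoglobin and mitochondrial genes. With single libraries left out, fitted differences that changed sign ranged from -0.068 to 0.12 for Atp5g1, from -0.098 to 0.044 for Atp5g2, from -0.13 to 0.016 for Cox4i1, from -0.16 to 0.24 for Cox6b2, from -0.077 to 0.014 for Cox7a2, from -0.087 to 0.038 for Cox7a2l, from -0.014 to 0.041 for Cox7b, from -0.029 to 0.037 for Cox8a, from -0.00049 to 0.074 for Ndufb11, from -0.11 to 0.0024 for Sdhc, from -0.026 to 0.15 for mt-Atp6, from -0.028 to 0.11 for mt-Atp8, from -0.034 to 0.061 for mt-Co3 and from -0.034 to 0.17 for mt-Nd1. The cause was not tested for any of these. With 3 libraries a group, a two-sided exact permutation test of 1 value cannot go below p = 0.1.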
